A study of Saccharina japonica with 2 samples.

Results

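The unigenes described here are those of Saccharina japonica, a brown alga known as kelp, whose annotation names the chloroplast or its pigments. They are the 13 of 1998 annotated unigenes used here whose annotation text holds the words chloroplast, photosystem, chlorophyll, fucoxanthin, light-harvesting or plastid, out of 70288 unigenes with at least 1 read. The 1998 are only a part of the unigenes that the study annotated, so the 13 need not be all that the words would find. The text rule was to leave out the unigenes that the study lists as blue light receptors or blue light response genes, and none of the 13 was among them. The word chloroplast brought in 5, chlorophyll 5 and plastid 3, while photosystem, fucoxanthin and light-harvesting brought in 0. The label of photosynthesis therefore holds only in part, since the list has no antenna or reaction centre protein. That absence describes this list and not the transcriptome.

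After 4 h of darkness, sporophytes spent 2 h in sterilized seawater, either in darkness or under blue light (BL). The vegetative thallus of 10 individuals was pooled for each treatment, and polyadenylated RNA of each pool gave 1 library, so that no replicate is at hand. The labels call the thalli mature and the methods of the study call the sporophytes juvenile. A unigene is a contig of the authors' assembly without a reference genome, and several unigenes can be pieces of the same transcript.

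In brown algae the chloroplast holds chlorophyll and the brown carotenoid fucoxanthin. Chlorophyll is built from the same precursor as heme, and a late step of its synthesis reduces protochlorophyllide to chlorophyllide. The chloroplast makes part of its proteins on its own ribosomes, which resemble those of bacteria, and imports the others from the cytosol. In its thylakoid membranes light drives electron transport, and the proton gradient that results powers an ATP synthase.

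Uniquely aligned reads numbered 10905306 for darkness and 11410538 for BL. Levels are given as RPKM, which scales the reads of a unigene to its length and to the total of uniquely aligned reads of its library. A positive log2 ratio means a higher RPKM in BL. The reads of a unigene in the 2 libraries were compared with the 2-sided Audic-Claverie exact test, with Benjamini-Hochberg adjustment (FDR) over all 70288 unigenes. A unigene was called upregulated or downregulated where its P did not exceed 0.05, its FDR did not exceed 0.001 and its level changed at least 2-fold (log2 ratio of 1 or -1 and beyond), whatever its length. With 1 library on each side, a call says that these libraries differ, and it is no test of the treatment. Intervals are exact 95% Clopper-Pearson intervals, which cover counting error only. Mannuronan C-5-epimerase, bromoperoxidase and the imm upregulated genes were looked for as brown algal markers, and 18 unigenes had these annotations. All 18 had reads in both libraries, between 13 and 1843 for darkness and between 27 and 5462 for BL. Whether these reads came from the kelp alone was not tested. The only diatom marker looked for, a HEP200 protein, had 36 and 82 reads, and its part in the results was not tested.

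All 13 unigenes had reads in both libraries, and they moved in both directions. Under BL 2 were upregulated, 4 were downregulated and 7 passed neither rule. Of all unigenes with a read, 25.0% were upregulated and 11.6% downregulated, so the 2 of 13 (15.4%) is a smaller share and the 4 of 13 (30.8%) a larger one. In either direction it was 6 of 13, against 36.6% of all. By the FDR threshold alone 4 members were higher and 4 lower in BL, against 27.8% and 17.0% of all unigenes. Among the 1998 annotated unigenes the shares under all thresholds were 34.5% and 9.11%. Among the unigenes with at least 42 reads, the number on the least-read of the 13, they were 30.8% and 18.5%. The median log2 ratio of the 13 was -0.34, against 0.73 over all unigenes with a read and 0.56 over the annotated ones. The 0.73 takes in 8361 unigenes without a dark read and 926 without a BL read. For these the missing RPKM was set to a small floor value. Over the unigenes with reads in both libraries, as all 13 had, the median was 0.42. Over the unigenes with at least 42 reads it was 0.16, which is closer to the members. At 500 bp or more the median was -0.04 for the 11 members left and 0.26 for all unigenes. Summed over the 13, the reads went the other way, from 9167 in darkness (0.0841% of the library) to 16071 in BL (0.141%), a log2 ratio of 0.74. The 4 most-read unigenes, the ATP synthase subunit, both ribosomal proteins and the chloroplastic protein, held 80.5% of these dark reads and 91.8% of the BL reads.

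**Figure D1:**
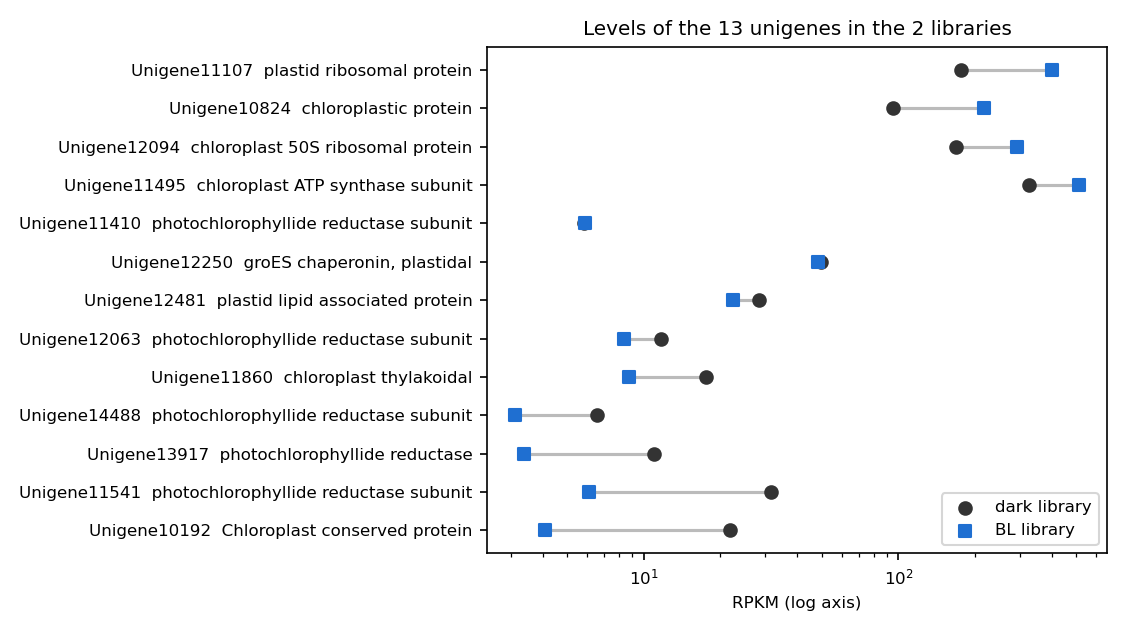
RPKM (horizontal, log axis) of each of the 13 unigenes in the dark library (black circles) and the BL library (blue squares), 1 library each, ordered by ratio. The 5 most abundant unigenes in BL lie between 48.2 and 512 RPKM, and all 5 reductase unigenes lie below 9 RPKM in BL.

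The largest group of the same annotation was photochlorophyllide reductase, as the annotation spells it, with 5 unigenes. Protochlorophyllide reductase is the enzyme that forms chlorophyllide, and plants and algae can have a form that needs light and a form of several subunits that works in darkness. The annotation names a subunit for 4 of the 5 and does not say which form is meant. Of the 5, 2 were downregulated (40.0%) and none was upregulated, against 11.6% and 25.0% of all unigenes. Among the unigenes with at least 42 reads these shares were 18.5% and 30.8%.

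Unigene11541 (665 bp), annotated as a subunit, had 230 dark and 46 BL reads, that is 31.7 and 6.06 RPKM. Its log2 ratio was -2.39 (interval -2.88 to -1.93, FDR 1.38e-31 in the exact test), a level 5.23-fold higher in darkness. Unigene13917 (569 bp), the only one of the 5 annotated without the word subunit, had 68 dark and 22 BL reads, or 11.0 and 3.39 RPKM. Its log2 ratio was -1.69 (interval -2.46 to -0.98, FDR 9.39e-07). Both were thus several times more abundant in the dark library.

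The 3 other subunit unigenes passed no rule. Unigene14488 (393 bp), the shortest of the 13, had 28 dark and 14 BL reads, or 6.53 and 3.12 RPKM, and its log2 ratio of -1.07 had an interval from -2.10 to -0.09 and an FDR of 0.0339. Unigene12063 (732 bp) had 93 and 70 reads, or 11.7 and 8.38 RPKM, with a log2 ratio of -0.48 (interval -0.94 to -0.01, FDR 0.0545). Unigene11410 (775 bp) had 49 and 52 reads, or 5.80 and 5.88 RPKM, with a log2 ratio of 0.02 (interval -0.57 to 0.61, FDR 1). The interval of Unigene11410 did not overlap those of Unigene11541 and Unigene13917, so unigenes with this annotation did not share a single ratio. Added together, the 5 unigenes had 468 dark and 204 BL reads over 3134 bp, 13.7 and 5.70 RPKM (log2 ratio -1.26, interval -1.51 to -1.02). Unigene11541 gave more of the dark reads in this sum than any other of the 5.

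Both unigenes annotated as ribosomal proteins of the plastid had more reads in BL. These proteins belong to the ribosome that translates the messages of the chloroplast's own genome. Unigene11107 (1093 bp), a plastid ribosomal protein, went from 2104 to 4994 reads, from 177 to 400 RPKM. It was upregulated, with a log2 ratio of 1.18 (interval 1.11 to 1.26, FDR 1.4e-235). Unigene12094 (605 bp), a chloroplast 50S ribosomal protein of the large subunit, went from 1107 to 2018 reads, from 168 to 292 RPKM. Its log2 ratio of 0.80 (interval 0.69 to 0.91, FDR 1.7e-50) was under the fold threshold. The intervals of these unigenes did not overlap, although both levels were higher in the BL library.

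Of the thylakoid annotations, the ATP synthase unigene was the more abundant by far. Unigene11495 (828 bp), a chloroplast ATP synthase subunit, was the most abundant of the 13 in either library, with 2945 dark and 4838 BL reads, 326 and 512 RPKM. It ranked above 98.9% of all unigenes in darkness and 99.7% in BL. Its log2 ratio of 0.65 (interval 0.58 to 0.72, FDR 9.75e-84) passed the FDR threshold but not the fold threshold. Unigene11860 (609 bp), whose annotation ends after the words chloroplast thylakoidal, had 117 dark and 61 BL reads, 17.6 and 8.78 RPKM. It was counted as downregulated at a log2 ratio of -1.005 (interval -1.48 to -0.55, FDR 1.83e-05), which is at the fold threshold itself, and a pseudocount of 1 RPKM moved it to -0.93, outside the rule. A library that held more of the ATP synthase message therefore held less of this one.

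Unigene12250 (1287 bp), a plastidal groES chaperonin, the lid of the folding chamber in which newly made chloroplast proteins fold, was close to even. It had 694 dark and 708 BL reads, 49.4 and 48.2 RPKM (log2 ratio -0.04, interval -0.19 to 0.12, FDR 0.687). As a fold of BL over dark the interval runs from 0.877 to 1.08. Unigene12481 (1277 bp), a plastid lipid associated protein of the kind that coats lipid globules in plastids, had 393 dark and 325 BL reads, 28.2 and 22.3 RPKM. Its log2 ratio of -0.34 (interval -0.56 to -0.12, FDR 0.00335) passed neither the FDR nor the fold threshold. It is the middle value of the 13.

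The 2 unigenes annotated only by place moved in opposite directions. Unigene10824 (1176 bp), a chloroplastic protein with no function given, went from 1227 to 2901 reads, from 95.7 to 216 RPKM. It was upregulated with a log2 ratio of 1.18 (interval 1.08 to 1.27, FDR 5.13e-136). Unigene10192 (471 bp), a chloroplast conserved protein, went from 112 to 22 reads, from 21.8 to 4.09 RPKM. It was downregulated, 5.33-fold lower in BL, with a log2 ratio of -2.41 (interval -3.14 to -1.74, FDR 5.07e-16), the lowest of the 13. At 471 bp it drops out where a minimum length of 500 bp is set.

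In the order of the ratios, from Unigene10192 to Unigene11107, each unigene's interval overlapped that of the next, except between Unigene12094 and Unigene10824. The order of neighbours is thus mostly not resolved by the counts, while the lowest and the highest unigenes are far apart. The upregulated pair lay close to the fold threshold. With TMM factors the log2 ratios of Unigene11107 and Unigene10824 were 0.89 and 0.89, with median-of-ratios size factors 0.76 and 0.76, and neither was then upregulated.

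**Figure D2:**
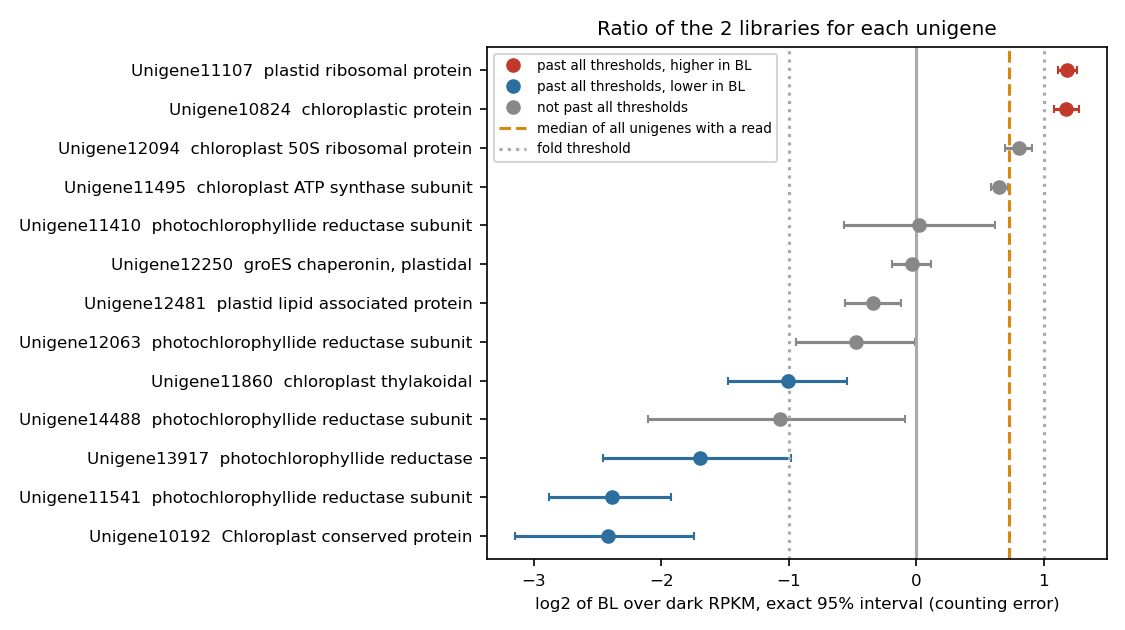
Log2 of BL over dark RPKM (horizontal) of each of the 13 unigenes with its exact 95% interval from the read counts of 1 library per treatment, coloured by whether all thresholds were passed. The 4 downregulated unigenes lie between -2.41 and -1.005 and the 2 upregulated ones at 1.18, and 10 of the 13 lie below the median of all unigenes at 0.73 (dashed). The median of the unigenes with reads in both libraries, which is not drawn, was 0.42.

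The 13 unigenes fell apart in GC content, a feature of the sequence that the text rule did not use. It was 33.76% to 43.16% in 6 of them, the 5 reductase unigenes and Unigene10192, and 53.69% to 61.98% in the other 7, with none between. These groups were formed at 45% after the values had been seen and are given without a test. The 6 AT-rich unigenes had log2 ratios from -2.41 to 0.02, with 3 downregulated and 0 upregulated. The 7 others ran from -1.005 to 1.18, with 1 downregulated and 2 upregulated. Of all unigenes with a read, 11.6% were downregulated and 25.0% upregulated. Among the unigenes with at least 42 reads these shares were 18.5% and 30.8%. The called shares of all unigenes on either side of 45% GC were not counted. Whether the counts of the 2 groups are particular to the members was therefore not tested. In darkness the levels of the groups overlapped, at 5.80 to 31.7 RPKM for the 6 and 17.6 to 326 RPKM for the 7. In BL they did not, at 3.12 to 8.38 RPKM for the 6 and 8.78 to 512 RPKM for the 7. The values nearest each other, of Unigene12063 and Unigene11860, rest on 70 and 61 BL reads. These counts are too low to tell 8.38 from 8.78 RPKM, so the groups met in BL within counting error.

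Across the transcriptome the ratio of the libraries rose with GC content in the same sense. Among unigenes with at least 50 reads and reads in both libraries, the median log2 ratio was -0.82 in the 3934 of at most 45% GC, 0.91 in the 6736 between 55% and 60%, and 1.86 in the 5806 above 60%. The median was -1.38 in the 6 members of at most 45% GC and 0.80 in the 3 members above 60%, so these 3 lay below the unigenes of like GC content. With the trend with GC content subtracted, the ratios of the upregulated pair changed sign, to -0.45 for Unigene11107 and -0.71 for Unigene10824. The ATP synthase Unigene11495 then stood at -0.71. Unigene12094 stood at -1.07 and the lipid associated Unigene12481 at -2.11, and both were then downregulated. The reductase Unigene11541 remained downregulated at -1.62, and so did Unigene11860 at -1.18. The conserved protein Unigene10192 kept its call at -1.35, but its 33.76% GC lay below the lowest point of the trend, at 40.51%. There the trend was held flat at -1.07, so whether the call outlasts a trend measured at its GC content was not tested. Unigene13917, at -0.85, no longer passed the fold threshold. The median log2 ratio of the 5 reductase unigenes was -1.07 with the trend and -0.08 without it. The part of GC content in these ratios was not tested, and it cannot be told apart from the treatment with 1 library of each.

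**Figure D3:**
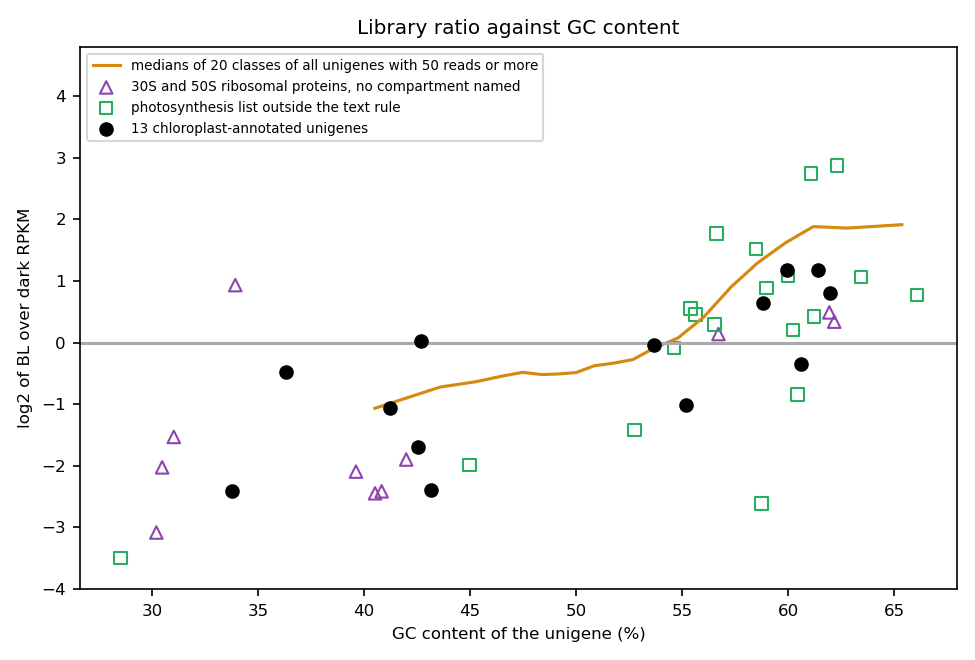
Log2 of BL over dark RPKM against GC content (%) for the 13 unigenes (black), the photosynthesis list outside the text rule (green squares) and ribosomal proteins with no compartment named (purple triangles), with the medians of 20 GC classes of all unigenes with 50 reads or more (orange line). The 13 unigenes form a group at 33.76% to 43.16% GC with ratios up to 0.02 and a group at 53.69% to 61.98% GC with ratios up to 1.18.

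The deposited lists also give the percentage of each unigene's length that reads of a library covered. In darkness the 13 unigenes were covered over 93.13% to 99.88% of their length, with a median of 98.95% against 87.95% over all unigenes with a read in either library. The 87.95% takes in 8361 unigenes without a dark read. Over the unigenes with at least 42 reads the median was 95.22%, which is closer to the members. In BL the 7 GC-rich unigenes were covered over 99.17% to 99.91%. Of the AT-rich ones, Unigene10192 was covered over 96.18% in darkness and 69.43% in BL. Coverage of Unigene14488 was 93.13% and 79.13%, and that of Unigene13917 was 98.95% and 87.70%. These 3 had the fewest BL reads of the 13, 22, 14 and 22. Unigene11541 ran against this, with 94.14% in darkness and 96.09% in BL although it had 46 BL reads against 230 dark reads. None of the 13 sequences held an unknown base, while 2284 of all unigenes did.

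**Figure D4:**
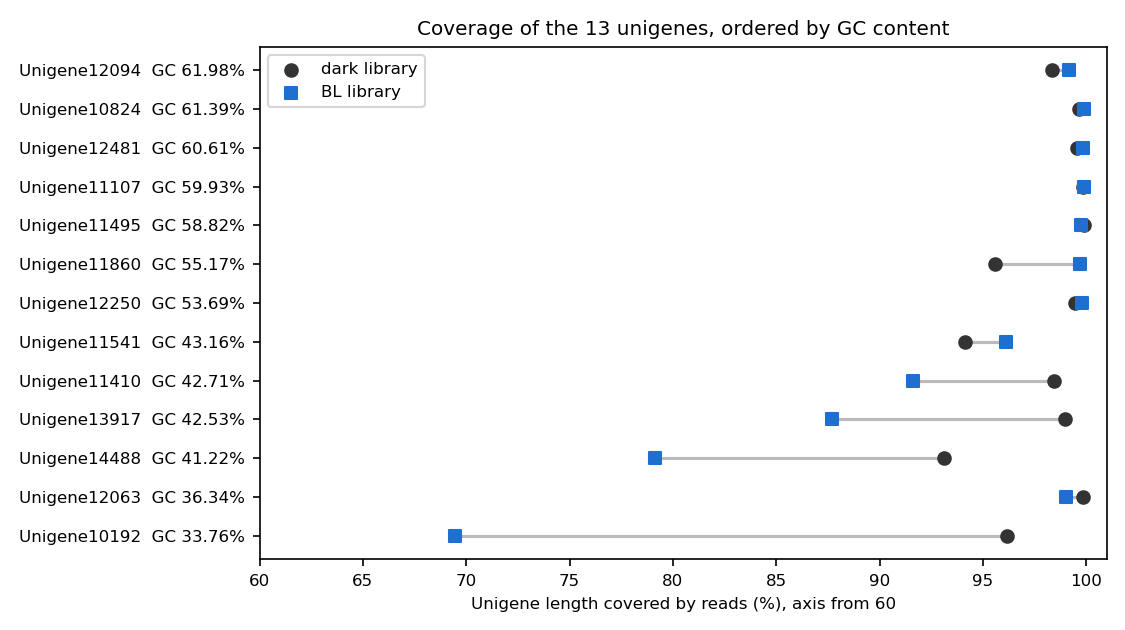
Percentage of the unigene's length covered by reads (horizontal axis from 60) in the dark (black circles) and BL (blue squares) library, 1 library each, ordered by GC content from the lowest at the bottom. Coverage in BL was 69.43% for Unigene10192 and 99.17% or more for all 7 unigenes above 45% GC.

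Other annotations of photosynthesis and the chloroplast, which lack the words of the rule, gave a second list of 19 unigenes chosen by annotation text. Of these 6 were upregulated (31.6%) and 4 downregulated (21.1%), and the median log2 ratio was 0.46. The upregulated share lies between the 25.0% of all unigenes and the 34.5% of the annotated ones, and the downregulated shares there were 11.6% and 9.11%. Without the GC trend the median of the 19 was -0.56, against -0.24 over the annotated unigenes and 0.43 over all. The 0.43 takes in the unigenes without a read in 1 library, which the 19 do not include. Over the unigenes with at least 42 reads it was 0.05. Of the 19, 2 were then upregulated and 6 downregulated. The group of light capture and the photosystem held 6 unigenes, among them an mRNA maturation factor and 2 thylakoid lumenal proteins. Of these 6, 4 were upregulated and all had a ratio above 0, while 62.3% of all unigenes were higher in BL. All 6 lay at 56.52% to 63.43% GC, where the trend with GC content stood at 0.61 to 1.87. Of the 4 calls, those of Unigene11135 and Unigene12353 held with either other scaling, and that of Unigene11135 alone held without the GC trend. With TMM factors 1 of these 6 fell below 0, with median-of-ratios size factors 2 did, and without the GC trend 4 did. Unigene11135, a PsbB mRNA maturation factor of the kind that stabilizes the message of a photosystem protein in green algae, went from 111 to 397 reads (log2 ratio 1.77, interval 1.47 to 2.09). The annotation of Unigene12353 is PsbB, the name of a chlorophyll-binding core protein of photosystem II. This unigene, at 58.47% GC, went from 44 to 132 reads (log2 ratio 1.52, interval 1.02 to 2.05). Without the GC trend its log2 ratio was 0.25. Whether it encodes that protein was not tested.

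The unigenes annotated as light harvesting complex protein, the antenna that carries chlorophyll and fucoxanthin in brown algae, differed from each other. Unigene14105 went from 923 to 2019 reads (log2 ratio 1.06, interval 0.95 to 1.18), and was upregulated. Unigene14932 had 314 and 378 reads (log2 ratio 0.20, interval -0.02 to 0.42, FDR 0.099). The thylakoid lumenal proteins showed the same split. Unigene1062 went from 993 to 2205 reads, at 1.09 (interval 0.98 to 1.20), and Unigene14776 from 341 to 439 reads, at 0.30 (interval 0.09 to 0.51). With either of the other scalings neither Unigene14105 nor Unigene1062 was upregulated.

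Pigment enzymes moved both ways. Zeaxanthin epoxidase, which turns zeaxanthin into violaxanthin in the xanthophyll cycle, went from 818 to 6280 reads in Unigene11051 (log2 ratio 2.88, interval 2.77 to 2.98), the highest ratio of this list. It was upregulated also with TMM factors at 2.59, with median-of-ratios size factors at 2.46 and without the GC trend at 1.01. The zeta-carotene desaturase Unigene10810, of an earlier step of carotenoid synthesis, had 2941 and 4137 reads (log2 ratio 0.43, interval 0.36 to 0.50). On the chlorophyll branch, the magnesium-protoporphyrin cyclase Unigene10597 fell from 583 to 54 reads (log2 ratio -3.50, interval -3.93 to -3.09). This enzyme makes the substrate of protochlorophyllide reductase, and the unigene, at 28.51% GC, was also AT-rich. Ferrochelatase, which leads from the shared precursor to heme, fell from 935 to 366 reads in Unigene14556 (log2 ratio -1.42, interval -1.60 to -1.24). A homologue of lethal leaf-spot, an enzyme of chlorophyll breakdown in maize, had 667 and 960 reads in Unigene11396 (log2 ratio 0.46, interval 0.32 to 0.60).

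Among enzymes of plastid membrane lipids, the UDP-sulfoquinovose synthase Unigene12167 rose from 138 to 971 reads (log2 ratio 2.75, interval 2.49 to 3.02). Without the GC trend its log2 ratio was 0.89 and it was no longer called. SqdX, which uses its product to make sulfolipid in cyanobacteria, fell from 34 to 9 reads in Unigene13696 (log2 ratio -1.98, interval -3.23 to -0.89), and lost its call without the GC trend, at -1.33. The galactolipid enzyme monogalactosyldiacylglycerol synthase, Unigene1482, had 14 and 25 reads (log2 ratio 0.77, interval -0.23 to 1.83). These counts are too low to place the last 2 closely. Of 3 ferredoxin unigenes, the soluble electron carrier behind photosystem I, none passed the thresholds, with log2 ratios from -0.84 to 0.56. The import channel homologue tic20 fell from 280 to 48 reads in Unigene13090 (log2 ratio -2.61, interval -3.08 to -2.16), at 58.74% GC. The protease FtsH2, which helps to renew photosystem proteins in land plants, had 304 and 589 reads in Unigene11049 (log2 ratio 0.89, interval 0.69 to 1.09).

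Unigenes of like function whose annotation names no compartment were set beside the members. The 11 annotated as 30S or 50S ribosomal protein, which may belong to chloroplasts, mitochondria or bacteria, had a median log2 ratio of -1.90, with 7 downregulated (63.6%, against 11.6% of all unigenes) and none upregulated. The 7 were among the 8 of at most 41.99% GC. The 3 GC-rich ones had log2 ratios from 0.14 to 0.49, lower than those of the ribosomal members at 0.80 and 1.18. The most-read of the AT-rich ones was Unigene11699, with 9079 dark and 1122 BL reads (log2 ratio -3.08, interval -3.17 to -2.99), and Unigene11781 went against the rest at 0.93 (interval 0.68 to 1.19). Without the GC trend the median of the 11 was -1.03. The log2 ratios of 3 of the 7 were then inside the fold threshold, at -0.46 for Unigene10749, -0.96 for Unigene10012 and -0.997 for Unigene12420, and Unigene11781 was upregulated at 2.00. Unigene10749, Unigene10012 and Unigene11781 lay below 40.51% GC, the lowest point of the trend, where the trend was held flat. The difference between these lists was not tested.

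Beside the chloroplast ATP synthase subunit stood 3 ATP synthase unigenes with no compartment named. The gamma chain Unigene1071 was upregulated, from 1609 to 5850 reads, with a log2 ratio of 1.80 (interval 1.72 to 1.88). Unigene11319 and the F1-ATPase Unigene13651 were downregulated at -1.30 and -1.21. Without the GC trend the gamma chain stood at -0.08 and Unigene11319, at 30.59% GC where the trend was held flat, at -0.23. Neither was then called, and Unigene13651 remained downregulated at -1.84. In the ratios with no trend removed, the chloroplast unigene, at 0.65, lay between them. The 3 chaperonin unigenes with no compartment named had log2 ratios of -1.73, -0.23 and 0.73, on either side of the plastidal groES at -0.04. The lowest, Unigene12637, was downregulated and lost its call without the GC trend, at -0.67. Of the 4 unigenes annotated as mitochondrial, all carriers, 1 was downregulated and none upregulated, with log2 ratios from -1.02 to 0.36.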

How the data were processed

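The files hold 1 library of S. japonica in darkness and 1 under BL. By the study's methods, clean reads were assembled with SOAPdenovo, the unigenes of both libraries were merged and reads were aligned back; the aligner is not given in the sources used here. The deposited counts are whole numbers of uniquely aligned reads per unigene without normalization, by the authors. The deposited percent values are the covered length, GC content and unknown bases, per the file headers. Unigenes absent from a file were set to 0 reads, which allows up to 3. Reads are paired ends, and whether both mates of a fragment were counted is not given, so intervals may be too narrow.

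RPKM, the Audic-Claverie test (observed count in both tails) and intervals were computed with Python 3.11.15, NumPy 2.4.6, SciPy 1.17.1 and pandas 2.3.3. Alternatives used R 4.3.3, edgeR 4.0.16 and DESeq2 1.42.0: Fisher's exact test, Benjamini-Yekutieli adjustment, 500 bp, 10 reads, TMM and median-of-ratios size factors, a 4-fold threshold (log2 ratio of 2), edgeR's exact test with an assumed coefficient of variation of 0.2 or 0.4, a pseudocount of 1 RPKM, pooling of the reductase unigenes, and subtraction of the median log2 ratio of 20 GC classes (at least 50 reads), held flat beyond the outer classes. On Poisson counts simulated for all unigenes, 94% of 200 unigenes changed 4-fold, with 500 bp and 50 reads or more, were recovered. This run held counting error only, with no GC trend and no smaller change, so the share does not carry over to the calls here. All members were named, and so were the unigenes of the list of 19 except the ferredoxin ones. The comparison lists are given as counts and ranges, with selected unigenes named. The members and lists were chosen with earlier results of these data known. The annotation came from the 1998 entries used here, which are a part of the study's annotation. No unigene sequence was used.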

Additional observations from a re-analysis of the deposited data

How the results depend on the processing

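No paired analysis was possible because each treatment has 1 library and the labels give no replicate numbers, and no replicate could be left out. The 2 upregulated members became 0 with either other scaling (TMM or DESeq2 size factors), at a log2 threshold of 2, under an assumed coefficient of variation of 0.2 or 0.4, or the GC trend removed. The 4 downregulated members became 2 at a log2 threshold of 2 or a coefficient of 0.2, and 0 at 0.4. In the list of 19, the 6 upregulated became 2 at a log2 threshold of 2 and without the GC trend, 3 at 0.2 and 0 at 0.4. The 4 downregulated became 2 at 500 bp, a log2 ratio of 2 and 0.2, 0 at 0.4, and 6 without the GC trend. Over all unigenes, the 17561 upregulated and 8135 downregulated became 7757 and 3850 at 500 bp, 10182 and 2631 at 0.2, and 839 and 130 at 0.4. Downregulated ones were 3086 at a log2 threshold of 2 and 13295 with the size factors. Of all calls 68.3% were up, against 54.9% after TMM and 48.7% after size factors. These scalings moved all ratios by -0.29 and -0.42 on the log2 scale. The median of the members was -0.63 with TMM factors, -0.76 with size factors, -0.71 without the GC trend, and -0.04 with the reductase unigenes pooled or at 500 bp.

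Unigene10824 went from 1.18 to 0.89 and 0.76 with TMM and size factors and to -0.71 without the GC trend, and Unigene11107 from 1.18 to 0.89, 0.76 and -0.45. Unigene11410 turned to -0.27 and -0.40 with the scalings. Without the GC trend, Unigene11495 turned to -0.71, Unigene12094 to -1.07, Unigene12063 to 0.59 and Unigene12250 to 0.0496, Unigene12481 was called at -2.11 and Unigene13917 lost its call at -0.85. Of these, Unigene12063, at 36.34% GC, lay below the lowest point of the trend at 40.51%, where the trend was held flat. Unigene11860 lost its call at -0.93 with a pseudocount. Outside the members, these alternatives were added after the data had been seen. Unigene14932 turned to -0.0854 with TMM factors, -0.22 with size factors and -1.49 without the GC trend, and Unigene14776 to -0.12 with size factors and -0.31 without the trend. Removal of the trend alone turned Unigene1062 to -0.56, Unigene14105 to -0.81, Unigene10810 to -1.46, Unigene1482 to -1.14, Unigene11049 to -0.51, Unigene14665 to -0.56 and Unigene1071 to -0.08. It also ended the calls of Unigene12353 at 0.25, Unigene12167 at 0.89, Unigene13696 at -1.33, Unigene10749 at -0.46, Unigene12637 at -0.67 and Unigene11319 at -0.23.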
